A study of Rattus norvegicus with 14 samples.

Results

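The microRNAs (miRNAs) described here are 10 of the 350 rat miRNA rows of an islet array table. They were chosen by name: every row whose name, without arm or star suffix, is miR-9, miR-124, miR-129, miR-132, miR-153, miR-184 or miR-212. The islets came from female rats at day 14 of gestation (pregnant, 4 arrays) and from control female rats (4 arrays). The sources used here do not give the strain, the age or whether animals were pooled. The labels call the arrays biological replicates without naming animals. Each p-value rests on the spread among arrays, which may not be that among single animals. The series also holds arrays of INS832/13 insulin-secreting cells, not analysed here. Whole islets contain beta cells, other endocrine cells, vessels and nerve endings, so fewer cells of a type and less RNA per cell cannot be told apart in any value below.

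A miRNA is cut from a hairpin precursor, and its seed, bases 2 to 8, selects the messenger RNAs it represses. A star marks the arm that was regarded as the minor one when the array was designed. MiR-124 and miR-9 are the classical miRNAs of neurons and neural progenitors. MiR-132 and miR-212 are cut from 1 transcript induced by the cAMP-responsive factor CREB in neurons, and both have been studied in rodent islets for their effect on insulin secretion. MiR-153 and miR-129 are enriched in brain, and miR-184, known from epithelia, restrains Argonaute 2 in mouse beta cells.

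Of the 10 rows, 4 (rno-miR-129, rno-miR-129*, rno-miR-132 and rno-miR-153) were flagged as detected on all 8 arrays, 1 (rno-miR-212) on 1 array, and 5 (miR-9, miR-9*, miR-124, miR-124* and miR-184) on no array. Over all 350 rows, 155 (44.3%) were detected on no array. The 4 detected rows had log2 changes of -0.30 to 0.10, and 0 of them passed the test. The name "neuronal-type" describes where these miRNAs, other than miR-184, are best known. MiR-124 and miR-9, which define the neuronal class, were not detected in these islets. As a check of the tissue, miR-375, the abundant islet miRNA, read 7836 to 10198 in pregnant islets and 8614 to 11031 in control islets (normalised signal, lowest to highest of 4).

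The sequences below show what the array had to tell apart: the miRNAs detected on all arrays, miR-212, and the undetected miR-9, miR-9* and miR-184. They are from RefSeq (rat build GRCr8), 5′ to 3′, with the seed in capitals. The deposited table gives no sequence, so its older names were matched to RefSeq's arm names by the usual equivalence, which paired 8 of the 10 rows and left miR-124 and miR-124* without one.
miR-129-5p: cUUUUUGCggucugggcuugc
miR-129-1-3p: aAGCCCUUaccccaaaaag
miR-129-2-3p: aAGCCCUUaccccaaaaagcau
miR-132-3p: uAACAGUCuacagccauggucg
miR-212-3p: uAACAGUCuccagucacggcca
miR-153-3p: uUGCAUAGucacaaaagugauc
miR-9a-5p: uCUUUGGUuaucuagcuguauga
miR-9a-3p: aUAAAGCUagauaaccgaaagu
miR-184: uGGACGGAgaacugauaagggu
MiR-132-3p and miR-212-3p shared the seed AACAGUC and matched at 17 of 22 positions counted from the 5′ end, and no other mature rat miRNA of the RefSeq table carried that seed. The seeds of miR-129-5p, miR-153-3p, miR-9a-5p, miR-9a-3p and miR-184 were each carried by 1 mature name.

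MiR-129 is made from 2 hairpins, shown with both mature arms in capitals because the array read the arms separately.
Mir129-2: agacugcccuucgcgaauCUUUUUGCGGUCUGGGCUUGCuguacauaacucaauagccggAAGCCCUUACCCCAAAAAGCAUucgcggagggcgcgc
Mir129-1: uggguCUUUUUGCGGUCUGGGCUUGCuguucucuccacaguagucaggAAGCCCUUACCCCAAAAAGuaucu
The 5p arm is the same in both, at chr3:100657448-100657468 (minus strand) and chr4:58589716-58589736 (plus strand) of GRCr8. The 3p arms agree over the 19 bases they share, and the Mir129-2 arm is 22 bases long. The row named miR-129* is not assigned to either hairpin in the deposited table, so a signal there can come from both. Mir129-1 lies within the span of an annotated long non-coding RNA (LOC120102250). Mir132 and Mir212 sit on chromosome 10 with 182 bases between their hairpins (mature arms at chr10:60522091-60522112 and chr10:60521811-60521832, plus strand). Mir153 (mature arm at chr6:144306646-144306667, plus strand) lies within the span of Ptprn2, the gene for a receptor-type phosphatase-like protein of the dense-core granules of neurons and endocrine cells.

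The signals below are on a linear scale, scaled so that the 153 miRNAs detected throughout had the same 75th percentile on each array. They compare groups for 1 miRNA at a time and give no order of abundance between miRNAs, whose probes bind differently. Summed raw signal ran from 162042 to 229760 in pregnant islets and from 148467 to 222834 in control islets, with 157 to 188 miRNAs detected on the pregnant arrays and 170 to 182 on the control arrays. All 8 array names carry 1 slide identifier and a digit taken as 1 of 2 rows, with 3 pregnant arrays and 1 control array in row 1 and the reverse in row 2. The control array in row 1 was replicate 2, and the pregnant array in row 2 was replicate 1. Each difference within a row given below thus has 1 array on 1 of its sides. Several arrays stood apart from their group in markers of other cells. Pregnant replicate 2 had a summed leukocyte miRNA signal of 5502, against 696 to 886 on the other pregnant arrays. Control replicate 2 had a summed stromal and smooth muscle signal of 7125, against 1384 to 2118 on the other control arrays. Pregnant replicates 1 and 3 had acinar signals of 26.4 and 25.9, against 242 and 192 on pregnant replicates 2 and 4. Pregnant replicate 4 had an erythroid signal of 1653, against 651 to 1018 on the other pregnant arrays.

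**Figure D1:**
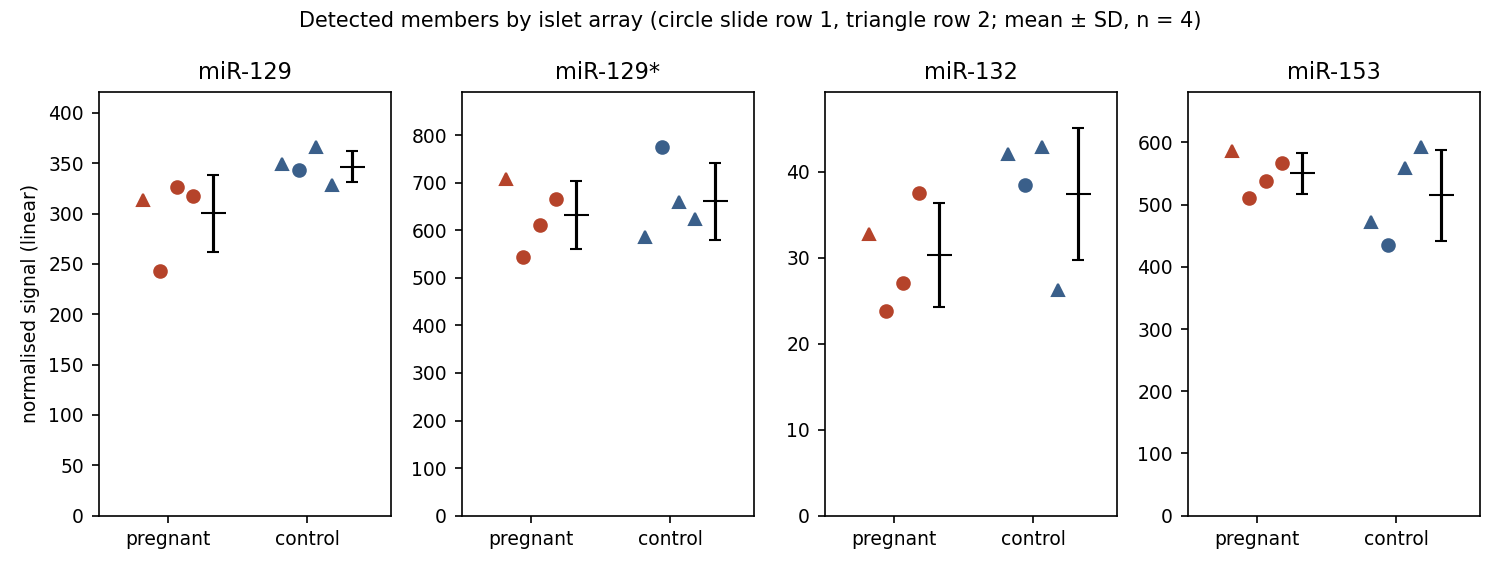
Normalised signal (linear axis from 0) of the 4 miRNAs detected on all 8 arrays, 1 point per array, pregnant islets left of control islets, circles for slide row 1 and triangles for row 2, bars mean ± SD (n = 4). For miR-129 the highest pregnant array (326) lies just under the lowest control array (328), while the groups of miR-129*, miR-132 and miR-153 overlap.

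MiR-129, whose mature 5p arm represses potassium channel and other synaptic messages in rodent neurons, was the member whose groups came apart. Its normalised signal was 314, 243, 326 and 318 in pregnant replicates 1 to 4, against 349, 343, 366 and 328 in control replicates 1 to 4. Every pregnant array lay below every control array, with pregnant replicate 2 the lowest of all 8 and the other pregnant arrays close to the control range. The means were 300 ± 38.3 in pregnant islets and 347 ± 15.5 in control islets (SD, n = 4 each), a log2 change of -0.22 (SE 0.11, 95% interval -0.46 to 0.03, limma adjusted p = 0.228). The difference did not pass the test, and its interval covers a fold of 0.727 to 1.02.

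Groups that do not overlap were common on these arrays: 14.6% of the 171 tested miRNAs had them, and 1 of the 4 tested members did. The separation of miR-129 rested on the scaling. In the authors' own log2 values the pregnant arrays ran from 7.75 to 8.46 and the control arrays from 8.29 to 8.50, so the groups overlapped. Quantile normalization gave nearly the same values of miR-129 (log2 change -0.17 in both), so it is not a separate check from the authors' values. The groups also overlapped without scaling and with scaling to all miRNAs. Under that last scaling, which raised the median change over all tested miRNAs to 0.13 from -0.02, the log2 change of miR-129 was -0.07. Without pregnant replicate 2 it was -0.12 (limma adjusted p = 0.253). Within slide row 1 miR-129 differed by -0.23 and within row 2 by -0.15.

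MiR-129*, the 3p arm, overlapped between the groups. It read 707, 543, 612 and 665 in pregnant replicates 1 to 4 and 586, 774, 659 and 623 in control replicates 1 to 4. The lowest array was again pregnant replicate 2, and the highest was control replicate 2, the array with the high stromal signal. The means were 632 ± 71.0 in pregnant islets and 661 ± 81.5 in control islets (SD, n = 4 each), a log2 change of -0.06 (SE 0.12, 95% interval -0.34 to 0.21, limma adjusted p = 0.744). The sign was not stable: the change was 0.09 under scaling to all miRNAs, 0.0069 without pregnant replicate 2 and 0.015 without control replicate 2. Within slide row 1, where control replicate 2 was the only control array, it differed by -0.36. Within row 2, with pregnant replicate 1 alone, it differed by 0.19.

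Because both arms come from the same hairpins, the log2 signal of miR-129* minus that of miR-129 on the same array removes any scaling by a constant factor. This difference was 1.17, 1.16, 0.91 and 1.07 in pregnant replicates 1 to 4 and 0.75, 1.17, 0.85 and 0.92 in control replicates 1 to 4. Control replicates 1 and 3 lay below all pregnant arrays, control replicate 4 lay just above pregnant replicate 3, and control replicate 2 lay at the top, so the groups overlapped. The means were 1.08 ± 0.12 in pregnant islets and 0.92 ± 0.18 in control islets (SD, n = 4 each), a difference of 0.15 (SE 0.11, 2-sided exact permutation p = 0.286, where 4 against 4 arrays cannot give less than 0.0286). This difference between the changes of the arms did not pass the test. Without control replicate 2 the difference was 0.24 (exact permutation p = 0.0857), and in the authors' values, which are not scaled by 1 factor per array, it was 0.03 (exact permutation p = 0.8). Blocking on the slide row gave 0.10 (exact permutation within rows, p = 0.625, where the 16 arrangements cannot give less than 0.0625).

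**Figure D2:**
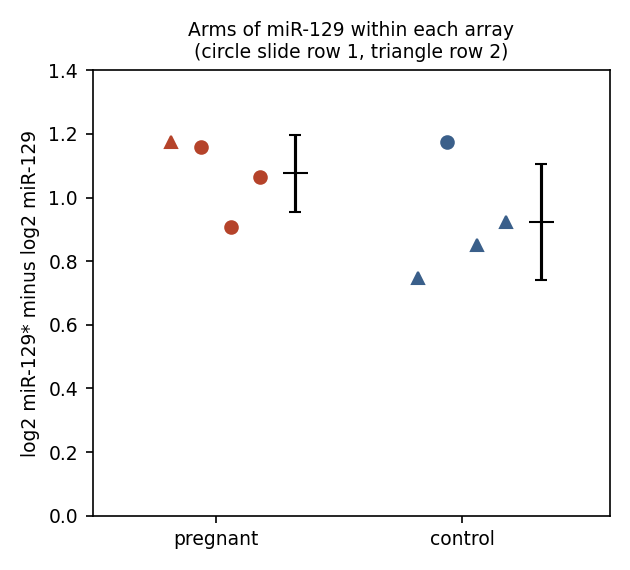
Log2 signal of miR-129* minus that of miR-129 on each array, pregnant islets left of control islets, circles for slide row 1 and triangles for row 2, bars mean ± SD (n = 4). Control replicate 2 (1.17) lies level with the highest of the pregnant arrays (0.91 to 1.17), above the other control arrays (0.75 to 0.92).

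MiR-153, which has been tied to messages of the vesicle release machinery in neurons, was the 1 tested member with a higher mean in pregnancy. It read 586, 510, 538 and 567 in pregnant replicates 1 to 4 and 473, 436, 559 and 592 in control replicates 1 to 4. The pregnant arrays lay inside the control range, since control replicates 1 and 2 were low and control replicate 4 was the highest of all 8. The means were 550 ± 33.2 in pregnant islets and 515 ± 72.9 in control islets (SD, n = 4 each), a log2 change of 0.10 (SE 0.11, 95% interval -0.15 to 0.36, limma adjusted p = 0.602). Without control replicate 2 the change was 0.03, 0.26 under scaling to all miRNAs, and 0.21 when the slide row was a block (limma adjusted p = 0.24). Within slide rows 1 and 2 it differed by 0.30 and 0.12, and the only control array in row 1 was replicate 2, the lowest of all 8.

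MiR-132, the CREB-induced miRNA, was flagged as detected on all arrays at a signal near that of the negative control features. Its normalised signal was 32.8, 23.8, 27.1 and 37.5 in pregnant replicates 1 to 4 and 42.0, 38.5, 42.9 and 26.2 in control replicates 1 to 4. Control replicates 1, 2 and 3 lay above all pregnant arrays, and control replicate 4 was the second lowest of the 8. The means were 30.3 ± 6.08 in pregnant islets and 37.4 ± 7.70 in control islets (SD, n = 4 each), a log2 change of -0.30 (SE 0.20, 95% interval -0.77 to 0.17, limma adjusted p = 0.41). Without control replicate 4 the change was -0.46 (limma adjusted p = 0.197) and without pregnant replicate 2 it was -0.19. Scaling to all miRNAs gave -0.15 and quantile normalization -0.11. Within slide rows 1 and 2 miR-132 differed by -0.41 and -0.14.

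The 7 negative control features, none of them flagged as detected, set the background for miR-132. Their median raw signal was 20.9 to 28.7 on the pregnant arrays and 13.1 to 22.6 on the control arrays, and the highest of them read 54.2 to 65.7 on the pregnant arrays and 20.1 to 45.9 on the control arrays. The raw signal of miR-132 exceeded the highest negative control on 0 of 4 pregnant and 2 of 4 control arrays, and exceeded their median on 3 of 4 pregnant and 4 of 4 control arrays. In raw signal the highest negative control thus read higher on every pregnant array than on any control array. The medians overlapped, with control replicate 2 (22.6) above pregnant replicate 3 (20.9). The mean of miR-132 was lower in pregnant islets, and the part of the background in that difference was not tested. On all 8 arrays miR-129, miR-129* and miR-153 exceeded every negative control, by at least 4.07-fold, 8.19-fold and 7.20-fold.

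MiR-212, which shares its transcript and seed with miR-132, was flagged as detected on pregnant replicate 4 alone. Its raw signal was 1.16, 7.96, 1.39 and 17.9 in pregnant replicates 1 to 4 and 5.59, 4.81, 1 and 3.54 in control replicates 1 to 4, on every array below the median negative control of that array. Levels not flagged as detected are only bounds, and set against the lowest detected signals of the control arrays the pregnant arrays gave no fold above 1, so no fold is given. MiR-212 entered no test, and the planned comparison of miR-132 with miR-212 within each array was not made.

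**Figure D3:**
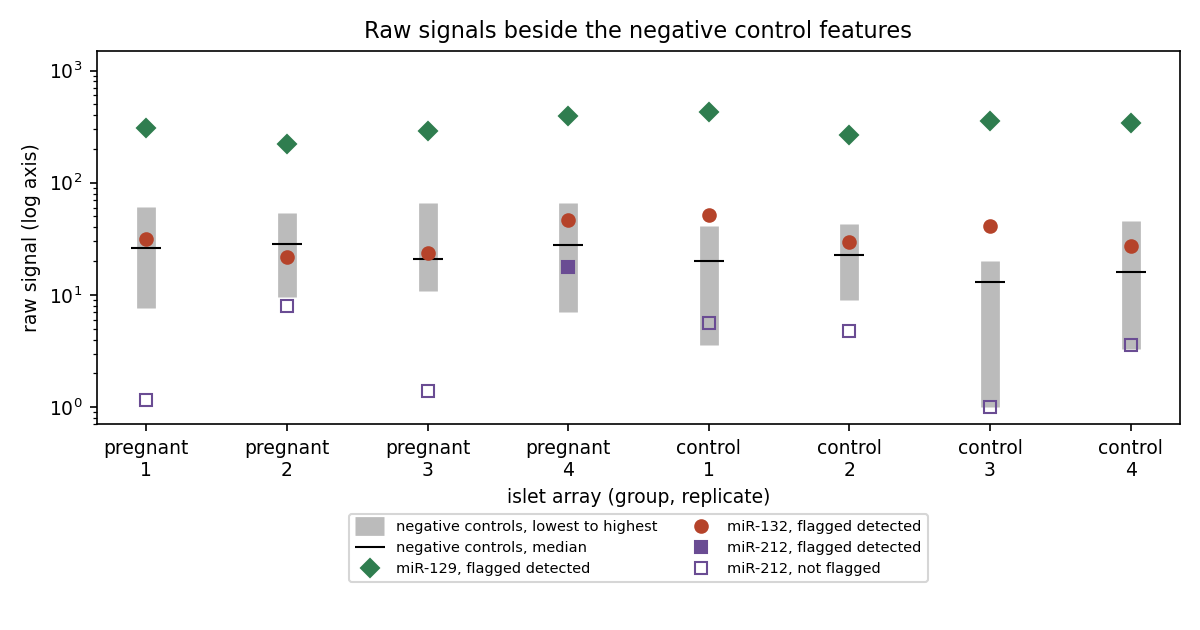
Raw signal (log axis) of miR-129, miR-132 and miR-212 on each array, pregnant arrays left of control arrays, with open symbols where the array did not flag the miRNA as detected, grey bars from the lowest to the highest of 7 negative control features and a black line at their median. MiR-129 lies above the grey bar on every array, miR-132 only on control replicates 1 and 3, and miR-212 on none.

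MiR-9, miR-9*, miR-124, miR-124* and miR-184 each had a raw signal of exactly 1 on all 8 arrays, the value that the deposited table holds for the lowest signals. This gives an upper bound and no level. MiR-9 has 3 hairpin copies in RefSeq with the same mature arms, and it represses the transcription factor Onecut2 in rat insulin-secreting cells. MiR-124 acts on Foxa2 in mouse beta-cell lines. A change of these 5 rows between pregnant and control islets was not detectable at the sensitivity of these arrays.

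Of the 4 tested members (6 rows did not reach detection on 4 arrays), 0 rose and 0 fell at a limma adjusted p under 0.05, where 4.68% of the 171 tested miRNAs did (2.34% higher, 2.34% lower), and 0 had an unadjusted p under 0.05, where 24.6% did. Their median log2 change was -0.14, with 3 negative and 1 positive, against a median of -0.02 over all 171 tested (82 positive, 89 negative). By size of change, 44.4% of tested miRNAs changed more than miR-129 in either direction, 32.2% more than miR-132, 69.0% more than miR-153 and 82.5% more than miR-129*. The residual spread of miR-132 (SD 0.31 on the log2 scale) exceeded that of 74.3% of the tested miRNAs, while those of miR-129 (0.15), miR-153 (0.16) and miR-129* (0.17) exceeded 37.4%, 45.6% and 49.1%.

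**Figure D4:**
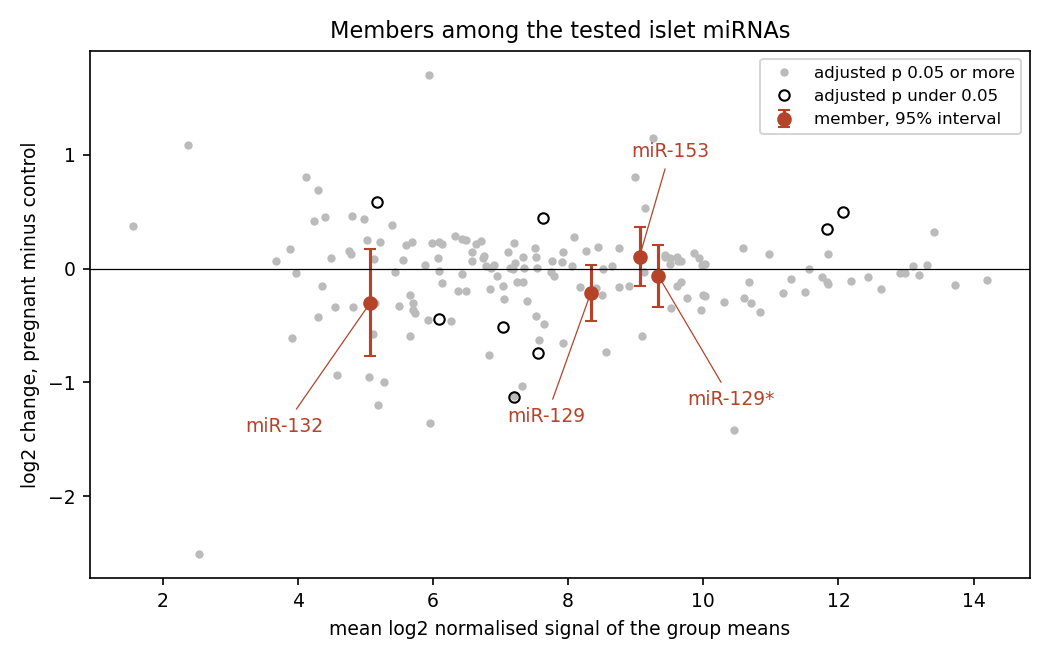
Log2 change, pregnant minus control, against the mean log2 normalised signal for the 171 tested miRNAs (grey), with the 8 called miRNAs as open circles and the 4 tested members in red with 95% intervals. Each red interval crosses 0, from miR-132 (-0.77 to 0.17) to miR-153 (-0.15 to 0.36).

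The lowest pregnant value of all 4 detected members was that of replicate 2, the array with the high leukocyte signal. That array also had the highest stromal (1711), endothelial (1736) and acinar (242) signals of the pregnant arrays. Its miR-142-3p, made by blood leukocytes, was 3702 against 154 to 269 on the other pregnant arrays and 182 to 362 on the control arrays, and its miR-375 of 7836 was the lowest of all 8. The part of leukocyte RNA in the members' values was not tested. The other lists were read on every array as summed signal of detected rows. The 1 detected glial row of 3, miR-219-5p, known from oligodendrocytes, read 37.6 to 44.5 in pregnant islets and 28.1 to 40.1 in control islets (log2 change 0.23, SE 0.12, limma adjusted p = 0.253). These signals were near those of miR-132 (23.8 to 37.5 in pregnant and 26.2 to 42.9 in control islets). The negative controls thus limit what can be said of miR-219-5p as well. The glial miR-219-1-3p and miR-219-2-3p were not detected on any array. The stromal list (8 of 10 rows detected on at least 1 array) summed to 785 to 1711 in pregnant and 1384 to 7125 in control islets, and its marker miR-143 read 595 to 1012 in pregnant and 997 to 6189 in control islets. The leukocyte list (8 of 8 rows) summed to 696 to 5502 in pregnant and 871 to 1128 in control islets. The acinar list (1 of 2, miR-216a, with miR-217 undetected) summed to 25.9 to 242 in pregnant and 114 to 312 in control islets. The endothelial list (2 of 2), led by miR-126, summed to 1247 to 1736 in pregnant and 1662 to 1776 in control islets. The erythroid list (2 of 2), led by miR-451, summed to 651 to 1653 in pregnant and 266 to 732 in control islets. The part of these cells in the members' values was not tested.

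Among other miRNAs known from neurons or endocrine cells, 36 rows were on the array, 21 were detected on at least 1 array and 17 were tested. Of these 0 rose and 2 fell at a limma adjusted p under 0.05, where 2.34% of all tested rose and 2.34% fell. The 17 had a median log2 change of 0.09, against -0.02 over all 171. The lowest changes were those of miR-139-3p (-1.20, SE 0.71, limma adjusted p = 0.327, detected on 3 of 4 pregnant arrays) and miR-338 (-1.13, SE 0.18, limma adjusted p = 0.0204). MiR-335 (-0.74, SE 0.15, limma adjusted p = 0.043) was the other call. Over 20 other settings the log2 change of miR-338 ran from -1.32 to -0.98 and that of miR-335 from -0.84 to -0.59. Their calls held under 12 and 7 of these, with adjusted p of up to 0.0753 and 0.246. The highest changes were those of miR-485 (1.08, SE 0.53, detected on 3 of 4 pregnant and 2 of 4 control arrays) and miR-384-3p (0.80, SE 0.26, detected on 4 of 4 pregnant and 2 of 4 control arrays), at limma adjusted p of 0.228 and 0.123. Both had low normalised signals. MiR-485 read 4.46 to 8.61 in pregnant and 1.30 to 8.04 in control islets, and miR-384-3p 15.2 to 31.0 and 9.54 to 16.5. The median negative control read 20.9 to 28.7 and 13.1 to 22.6 in raw signal. Several brain miRNAs of that list were detected on every array, such as miR-137 (97.4 ± 12.7 in pregnant islets and 94.0 ± 19.3 in control islets, SD, n = 4) and miR-128 (69.3 ± 6.50 in pregnant islets and 65.0 ± 5.17 in control islets, SD, n = 4), while miR-134, miR-138 and miR-326 were detected on none, as miR-9 and miR-124 were.

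How the members moved over the 8 arrays is a description, since they share scaling, slide and outlying arrays. Against 152 other miRNAs detected on all 8 arrays, miR-132 was most like miR-194 (Pearson's r 0.80, Spearman's rho 0.74) and miR-129 (r 0.74, rho 0.79). MiR-153 was most like miR-652 (r 0.85, rho 0.79) and miR-7a* (r 0.84, rho 0.86). MiR-129* was most like miR-200a (r 0.85, rho 0.74) and miR-200b (r 0.78, rho 0.62), and miR-129 most like miR-429 (r 0.88, rho 0.46) and miR-29c* (r 0.88, rho 0.36). The named miRNAs are the highest of the 152, over which the median r was 0.02 to 0.07. Without the 2 arrays farthest from the member's median, r was 0.80 and 0.67 for miR-132 and 0.69 and 0.49 for miR-153. It was 0.49 and -0.01 for miR-129*, and 0.25 and 0.01 for miR-129. The likenesses of miR-129 and that of miR-129* to miR-200b were thus weak or absent on the remaining 6 arrays. Leaving out the farthest arrays narrows a member's range, which can lower r by itself. The 2 arms of miR-129 correlated with each other at r 0.53, less than miR-129 did with miR-132, and miR-153 ran with none of them (r -0.30 to -0.06).

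**Figure D5:**
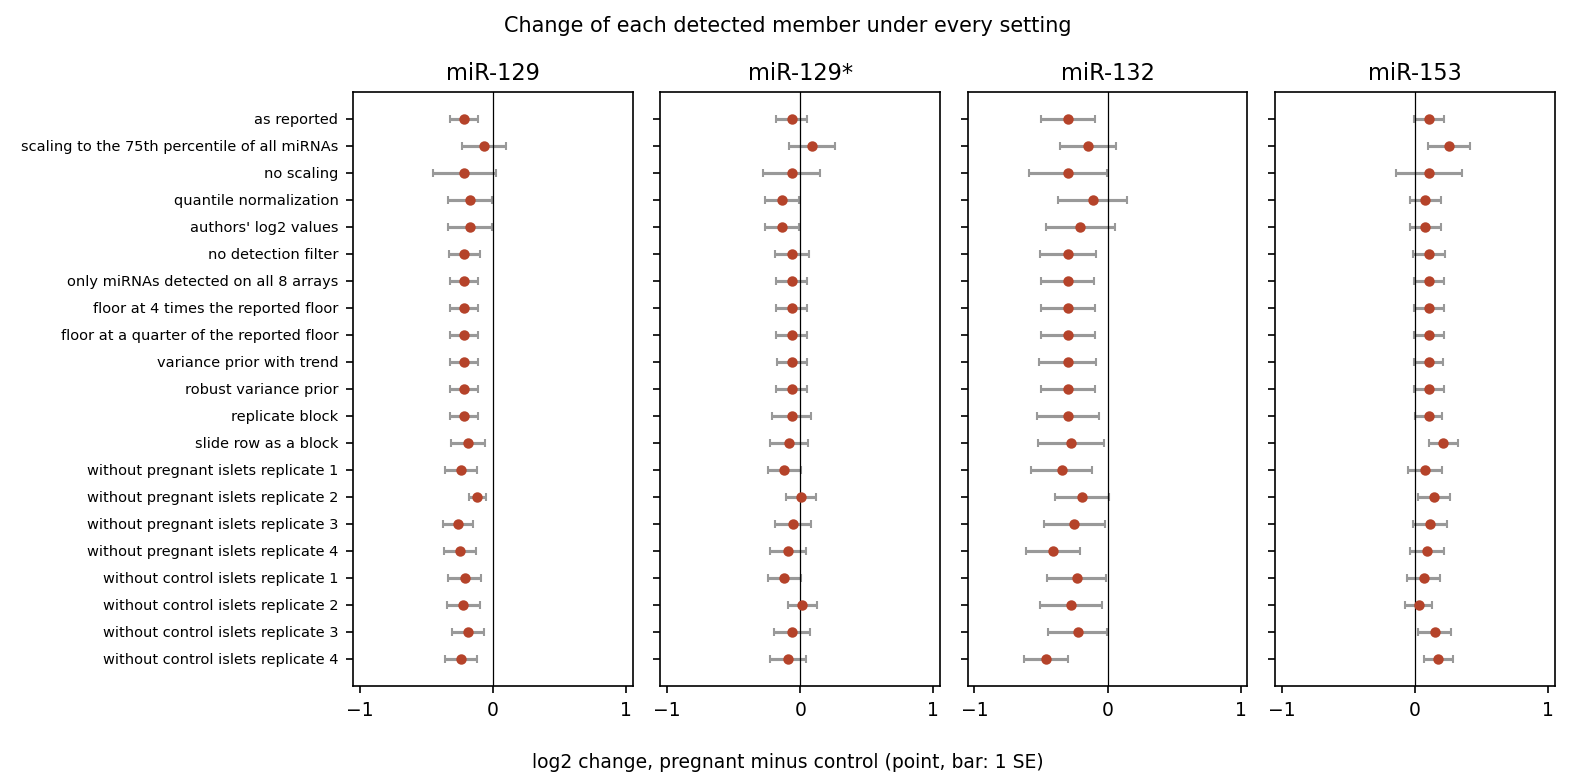
Log2 change, pregnant minus control (point) with its SE (bar), of the 4 tested members under the reported setting and 20 others, 1 row per setting. The points of miR-129 (-0.26 to -0.07) and miR-132 (-0.46 to -0.11) stay below 0, those of miR-153 (0.03 to 0.26) above it, and those of miR-129* (-0.14 to 0.09) lie on both sides.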

How the data were processed

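Islet RNA was labelled with cyanine3 and read on 1-colour miRNA arrays, per the labels' protocols. The deposited table gives a raw signal intensity per miRNA, with 1 as its lowest value, a detection flag, and log2 values that the authors normalized between arrays, per the file headers. The sources used here name neither the normalization method nor the software. Raw signals were scaled to the 75th percentile of the 153 miRNAs detected on all 8 arrays (factors 0.810 to 1.30). They were given a floor of 0.810, the lowest value flagged as detected after scaling, and put on the log2 scale. That lowest value was a raw signal of 1 on pregnant replicate 4. The 171 miRNAs detected on at least 4 arrays went into a limma fit (version 3.58.1, R 4.3.3, lmFit and eBayes, 2-sided), with Benjamini-Hochberg adjusted p under 0.05 as the threshold. The arm difference was tested by exact permutation. Tests were checked on simulated arrays. The 10 rows, the 7 lists of other miRNAs and the settings were chosen with earlier results of these data known. Named are all 10 rows, the 2 nearest miRNAs of each fully detected member, the 2 highest and 2 lowest changes of the neuronal and neuroendocrine list, and 1 marker per cell type. Other names there were chosen after their values were seen. Sequences are from RefSeq. The number of arrays limits the precision. No column of per-sample values was left unmatched.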

Additional observations from a re-analysis of the deposited data

Results flagged for a closer look

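The log2 normalised signal of miR-129 in pregnant replicate 2 was 7.93, where the next lowest pregnant array read 8.29. Its gap to that array was 0.866 of the range of the group, above Dixon's critical value at 95% for 4 samples. Of 12 groups of 4 arrays checked in this way, this was the 1 that stood out, and chance marks about 1 in 20. The same array had the summed leukocyte signal of 5502 and the highest stromal, endothelial and acinar signals of the pregnant arrays. Without that array the log2 change of miR-129 was -0.12 against -0.22.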

How the results depend on the processing

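The number of tested members past the threshold was 0 under the reported setting and all 20 alternatives (limma, with 1 member at an unadjusted p under 0.05 without control replicate 4 and 0 elsewhere). The filters, floors, variance priors and replicate block, 7 of the 20, leave the estimated change of a member as it is by construction. Over the other 13, miR-129, miR-132 and miR-153 kept the sign of their log2 change and miR-129* changed sign in 3: 0.087 under scaling to the 75th percentile of all miRNAs, and within a range of -0.12 to 0.015 on leaving out 1 array. Quantile normalization and the authors' values gave nearly the same changes of miR-129 (-0.17 in both), miR-129* (-0.14 in both) and miR-153 (0.08 in both). For these miRNAs they are not separate checks. The arm difference of miR-129 stayed positive, from 0.03 to 0.24, in the 11 of 14 alternatives that could move it. Over all tested miRNAs the 8 calls (4 higher, 4 lower) became 2 (1 higher, 1 lower) under scaling to all miRNAs, 0 without scaling, 0 without the detection filter and 23 (4 higher, 19 lower) when blocked on the slide row, and ranged from 0 to 19 on leaving out 1 array. At an unadjusted p under 0.05 these settings gave 42, 20, 48, 46 and 32 to 52 miRNAs, against 42. The 48 without the detection filter were of 350 rows and the other counts of 171, so the 48 are a smaller share. The split was 3 higher and 7 lower after quantile normalization and 1 higher and 5 lower in the authors' values. The causes were not tested. A replicate block (the labels' numbers) gave 10 calls, 0 of them members, and an arm difference of 0.15 (exact sign-flip p = 0.25, where 4 pairs cannot give less than 0.125). Same-numbered arrays correlated at -0.49 to 0.17 in their deviations and 1 of 8 arrays correlated best with its own number, so the numbers were not taken as pairs. The comparison of miR-132 with miR-212 was not run, since miR-212 was detected on 1 array. Signals near the negative controls limit what can be said of miR-132, and undetected rows are bounds.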
